A study of Mus musculus with 11 samples.

Results

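The 10 genes described here are members of the Lce1 group of late cornified envelope genes, Lce1a1, Lce1a2, Lce1b, Lce1c, Lce1d, Lce1e, Lce1f, Lce1g, Lce1h and Lce1m. They were chosen by name, with earlier results of these data known, and their array probesets carried 1 of these symbols and no other. Other measured genes of the group, Lce1i, Lce1k and Lce1l, were not included. The members were 10 of 20352 genes and held 19 of 211507 probesets. The value of a gene was the median log2 signal over its probesets, 1 to 3 for each member. Expression had been measured on 11 mouse whole-transcript arrays, 5 of keratoacanthoma, a keratin-filled squamous tumour of the skin, and 6 of normal skin. All 5 tumours came from mice carrying both the K14-Cre and the Zmiz1 transgene. Of the normal skins, 1 and 2 carried both transgenes, 3 and 4 carried K14-Cre alone, and 5 and 6 carried the Zmiz1 transgene alone. In K14-Cre, the promoter of the basal keratin Krt14 drives Cre recombinase, so that Cre is made in keratinocytes of the epidermis and its appendages. Ages and treatments were not given in the labels. Whether each piece was taken from a different animal is not in the labels, and the p-values therefore refer to array-to-array spread, part of which may be technical.

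Late cornified envelope proteins are small, cysteine-rich and glycine-rich proteins made by keratinocytes in the last stages of their differentiation. Transglutaminases cross-link them, with loricrin, involucrin, filaggrins and small proline-rich proteins, into the protein shell that replaces the plasma membrane of a dying keratinocyte and forms part of the skin barrier. Their genes lie together in the epidermal differentiation complex, a cluster that also holds most other envelope genes. In human skin, LCE1 genes are known as genes of normal epidermis, whereas LCE3 genes are known to be induced by injury and in psoriasis.

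The Lce1 genes went both ways in the tumours. Lce1m, Lce1b, Lce1a2 and Lce1c were lower in keratoacanthoma than in normal skin, by 2.65-fold, 2.28-fold, 1.71-fold and 1.61-fold, and Lce1f and Lce1g were higher, by 3.85-fold and 1.98-fold. Lce1a1, Lce1d, Lce1e and Lce1h did not pass the test (limma over all 20352 genes, Benjamini-Hochberg adjusted p below 0.05). Thus 2 of 10 members were called higher, where 14.5% of all genes were, and 4 of 10 lower, where 10.8% of all genes were. With the arrays centred on their medians the calls over all genes split as 3485 higher and 1677 lower, against 2959 and 2200 as deposited. The median log2 difference was -0.25 over the 10 members and -0.04 over all genes. In 5 members the groups did not overlap: all 5 tumours lay above all 6 skins in 2 members, as in 9.66% of all genes, and below them in 3, as in 6.31%. Averaged over the 10 members, the log2 level lay between 7.34 and 8.23 in the tumours and between 7.60 and 7.94 in normal skin, and the groups overlapped. Lce1 genes are close in sequence, so that probes may share signal between them and single values are uncertain. In whole tissue, fewer cells of a type and less RNA per cell cannot be told apart.

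**Figure D1:**
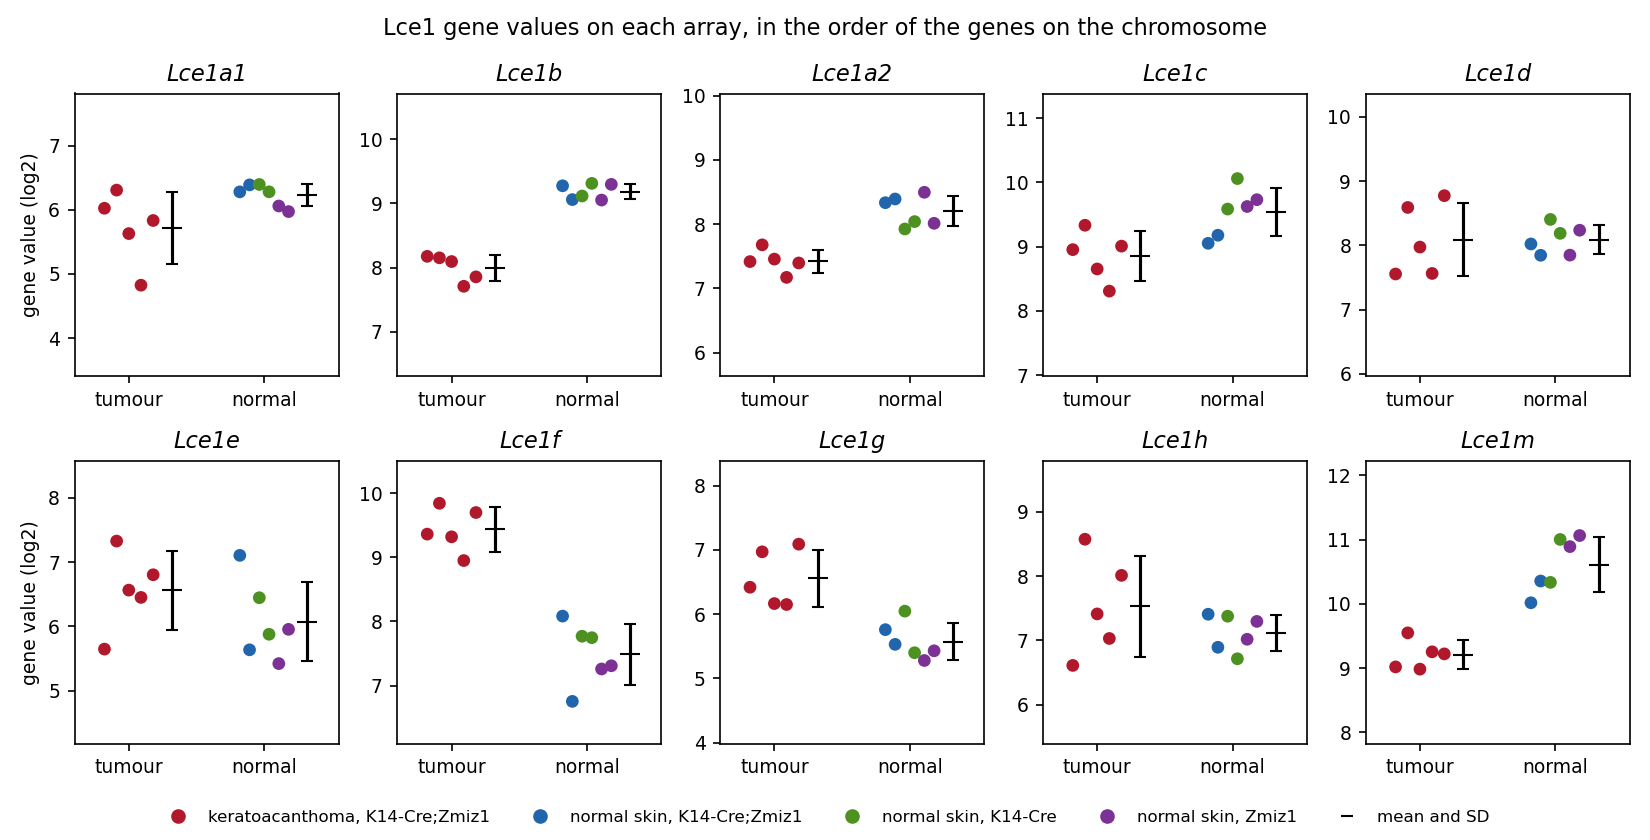
Log2 level of each of the 10 Lce1 genes on each array, keratoacanthoma and normal skin side by side, coloured by genotype, with the mean and SD of each group; the axes span equal ranges around different levels. The 5 tumours lie above all 6 skins in Lce1f and Lce1g and below them in Lce1a2, Lce1b and Lce1m.

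Lce1m, the member that lies farthest from the others in the cluster, had the largest fall against all 6 normal skins. Against normal skin of the tumours' own genotype Lce1b fell more, with log2 differences of -1.17 for Lce1b and -0.98 for Lce1m. In keratoacanthomas 1 to 5 the log2 level of Lce1m was 9.02, 9.55, 8.98, 9.25 and 9.22. In normal skin it ran from 10.02 to 11.06 with a median of 10.62. Every tumour lay below every skin, and the 3 lowest skins were normal skins 1, 2 and 3. The means were 9.21 ± 0.23 (SD, n = 5) and 10.61 ± 0.43 (n = 6), a log2 difference of -1.41 (SE 0.19, 95% interval -1.82 to -0.99, adjusted p = 0.00022 by limma, p = 0.0043 by the exact two-sided permutation test). The exact test of 5 against 6 arrays cannot give less than 0.0043.

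Lce1b had the smallest SE of the members that fell. Its log2 level in keratoacanthomas 1 to 5 was 8.18, 8.15, 8.10, 7.71 and 7.86, and in normal skin it ran from 9.05 to 9.31 with a median of 9.20. The groups were far apart, with the highest tumour clearly below the lowest skin. The log2 difference was -1.19 (SE 0.11, 95% interval -1.43 to -0.94, limma adjusted p = 1.3e-05, exact p = 0.0043), from means of 7.999 ± 0.205 (SD, n = 5) and 9.19 ± 0.12 (n = 6).

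Lce1a2 was lower by less. Keratoacanthomas 1 to 5 stood at 7.42, 7.68, 7.46, 7.17 and 7.40 on the log2 scale, against 7.92 to 8.50 in normal skin, with a median of 8.19. The groups did not overlap. The log2 difference was -0.78 (SE 0.13, 95% interval -1.06 to -0.49, limma adjusted p = 0.00087, exact p = 0.0043), from means of 7.42 ± 0.18 (SD, n = 5) and 8.20 ± 0.24 (n = 6).

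For Lce1c the call rested on single arrays. Its log2 level was 8.95, 9.33, 8.65, 8.31 and 9.01 in keratoacanthomas 1 to 5 and ran from 9.05 to 10.06 in normal skin, with a median of 9.61. Of the tumours, 4 lay below every skin and keratoacanthoma 2 lay among the skins. The log2 difference was -0.69 (SE 0.20, 95% interval -1.13 to -0.25, limma adjusted p = 0.025, exact p = 0.022), from means of 8.85 ± 0.39 (SD, n = 5) and 9.54 ± 0.37 (n = 6). The call was lost without keratoacanthoma 3 (-0.64, adjusted p = 0.063), without keratoacanthoma 4 (-0.55, adjusted p = 0.064) and without normal skin 4 (-0.58, adjusted p = 0.052).

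Lce1f was the member with the largest rise and the largest change of all 10. Its log2 level was 9.36, 9.84, 9.32, 8.95 and 9.70 in keratoacanthomas 1 to 5 and ran from 6.76 to 8.08 in normal skin, with a median of 7.53. All tumours lay above all skins. The means were 9.43 ± 0.35 (SD, n = 5) and 7.49 ± 0.47 (n = 6), a log2 difference of 1.94 (SE 0.23, 95% interval 1.46 to 2.43, limma adjusted p = 6.1e-05, exact p = 0.0043).

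Lce1g, the next gene in the cluster, was raised too. Keratoacanthomas 1 to 5 stood at 6.42, 6.97, 6.17, 6.15 and 7.09 on the log2 scale, and normal skin ran from 5.28 to 6.05 with a median of 5.48. The lowest tumour lay just above the highest skin, normal skin 3. The log2 difference was 0.98 (SE 0.20, 95% interval 0.56 to 1.41, limma adjusted p = 0.0027, exact p = 0.0043), from means of 6.56 ± 0.45 (SD, n = 5) and 5.58 ± 0.28 (n = 6).

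Among the 4 members without a call, the tumours were spread more than the skins in Lce1a1, Lce1d and Lce1h. Lce1h ran from 6.61 to 8.57 in the tumours and from 6.71 to 7.41 in normal skin, with 3 tumours above every skin and keratoacanthoma 1 below every skin (log2 difference 0.41, 95% interval -0.22 to 1.04, limma adjusted p = 0.34). Lce1d ran from 7.56 to 8.77 in the tumours and from 7.85 to 8.40 in normal skin, and the group means were both 8.09 (95% interval of the difference -0.48 to 0.48). These intervals hold changes of close to 0.5 in either direction for Lce1d and of more than 1 upwards for Lce1h, so that no likeness of tumour and skin was shown. Lce1e ran from 5.65 to 7.33 in the tumours and from 5.42 to 7.11 in normal skin (0.49, 95% interval -0.20 to 1.17, adjusted p = 0.30), where both groups had an SD of 0.61. Lce1a1, the first member of the cluster, ran from 4.83 to 6.31 in the tumours and from 5.97 to 6.39 in normal skin, with 3 tumours below every skin. Its log2 difference was -0.50 (95% interval -0.96 to -0.05, limma adjusted p = 0.10, exact p = 0.043), and it passed the threshold only without keratoacanthoma 2 (-0.65, adjusted p = 0.040) among the fits that left out 1 array.

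The tumours also differed from each other, and the same tumour was often the highest or the lowest. Keratoacanthoma 2 had the highest level of the 5 tumours in 7 of 10 members, keratoacanthoma 5 in Lce1d and Lce1g, and keratoacanthoma 1 in Lce1b. Keratoacanthoma 4 had the lowest level in 6 members, all of them among the 4 that fell, the 2 that rose or Lce1a1. It was not the lowest in Lce1m, where keratoacanthoma 3 was. Keratoacanthoma 1 was the lowest in Lce1d, Lce1e and Lce1h. No array stood apart from its group in any of the 10 members by Dixon's test, applied to 20 sets of 5 or 6 arrays.

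**Figure D2:**
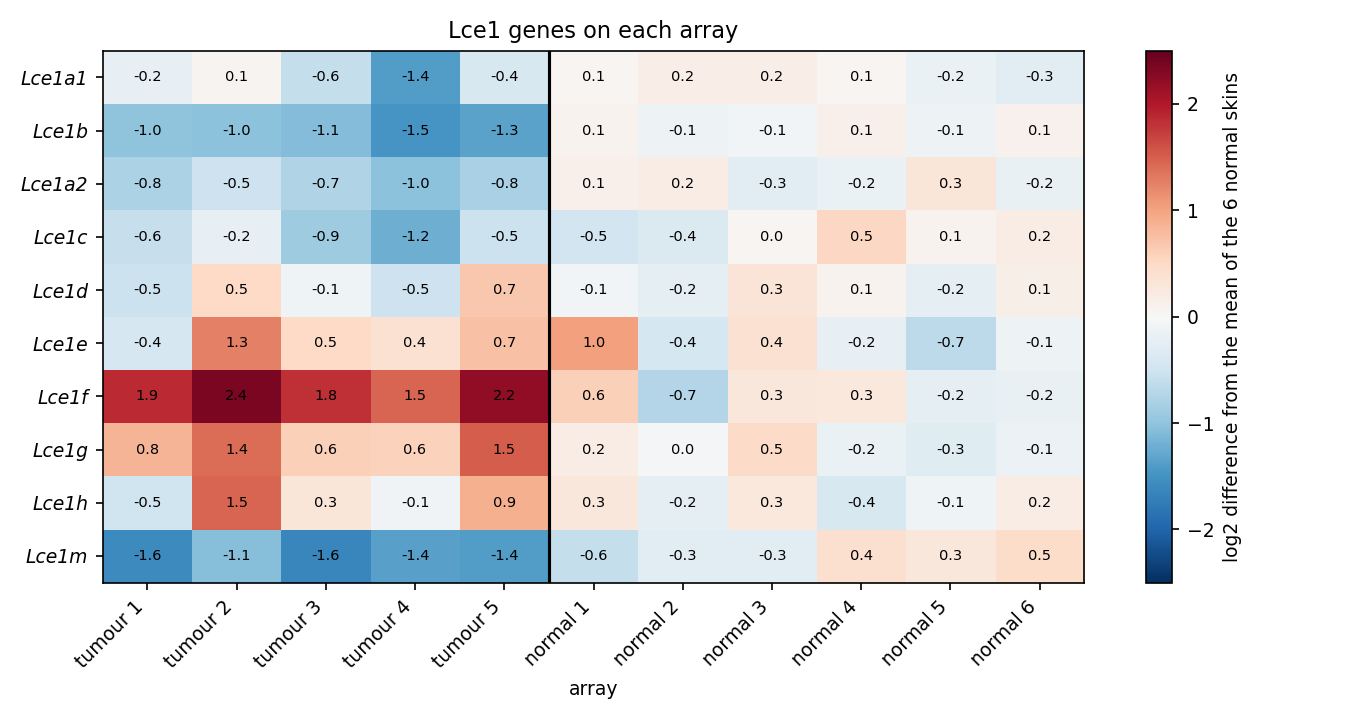
Log2 level of each Lce1 gene on each of the 11 arrays, shown as the log2 difference from the gene's mean over the 6 normal skins (red above it, blue below it). Keratoacanthoma 2 is the highest tumour in 7 of the 10 rows and keratoacanthoma 4 the lowest in 6.

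The differences followed the order of the genes in part. In the RefSeq annotation of GRCm38.p6, the cluster on chromosome 3 runs Lce6a, Lce1a1, Lce1b, Lce1a2, Lce1c, Lce1d, Lce1e, Lce1f, Lce1g, Lce1h, Lce1i, Lce1j, Lce1k, Kprp, Lce1l and 2310050C09Rik, then the Lce3 genes, Crct1 and, last, Lce1m. From Lce1b to Lce1f the log2 difference rose from -1.19 through -0.78, -0.69, 0.00 and 0.49 to 1.94, and it came down to 0.98 in Lce1g, 0.41 in Lce1h and -0.13 in Lce1i (adjusted p = 0.60). Lce1a1, before them, stood at -0.50, and the step from Lce1a2 to Lce1c was smaller than the SE of either gene's difference. Lce1k stood at -0.29 (adjusted p = 0.11) and Lce1l at -0.82 (adjusted p = 0.020). The call for Lce1l is that of a gene outside the 10. Its probesets differed, at -1.29 and -0.34 (adjusted p = 0.0012 and 0.57 by limma over all probesets). Past Lce1l, the 4 measured Lce3 genes were higher by 3.38 to 5.05. These are genes of the same family whose human counterparts are induced by injury. The level of Lce3b in normal skin lay below the 25th percentile of the arrays, so that its fold depends on dim values. Crct1, the gene next to Lce1m, stood at 0.41 (adjusted p = 0.063), while Lce1m itself fell by 1.41. The order was looked at after the values were known and was not tested.

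**Figure D3:**
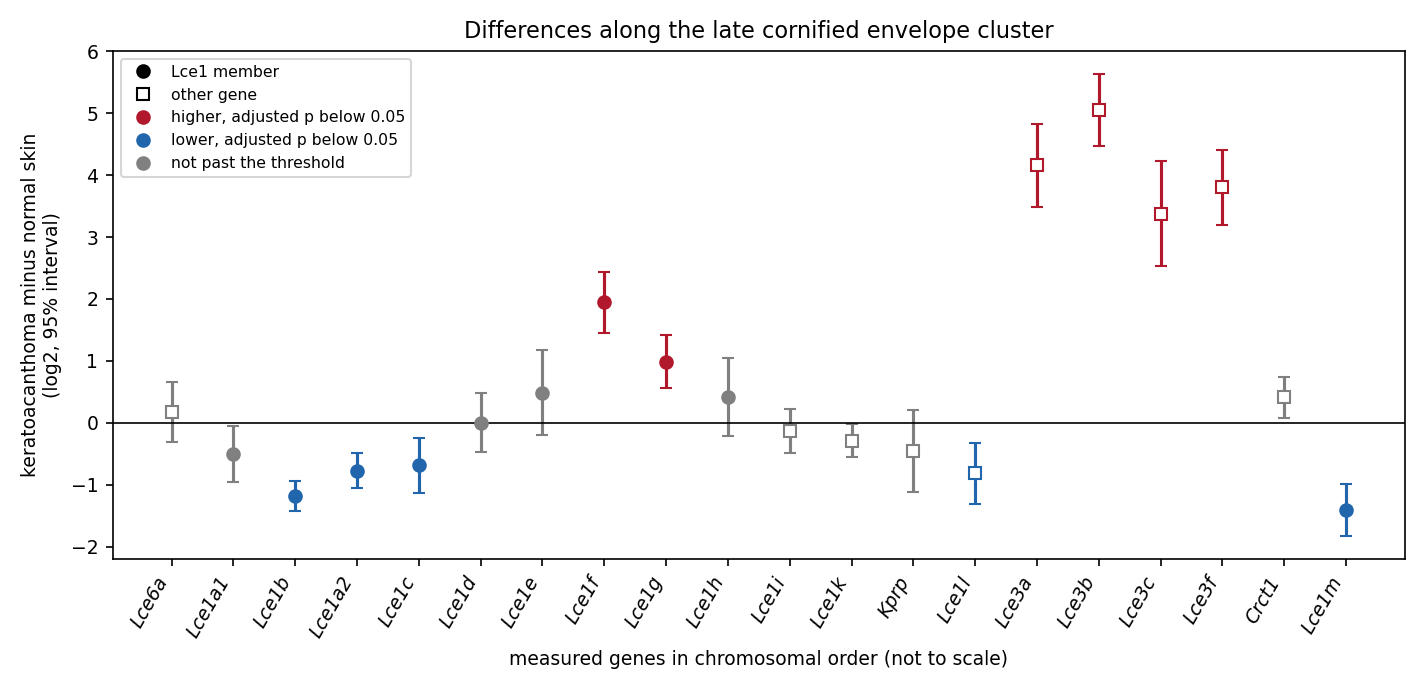
Log2 difference of keratoacanthoma minus normal skin, with its 95% interval, for genes in their order along the late cornified envelope cluster, not to genomic scale; circles are the 10 members and squares other genes, red called higher, blue lower and grey not called. The differences rise from -1.19 at Lce1b to 1.94 at Lce1f, return to near 0 at Lce1i and reach 5.05 at Lce3b, with Lce1m at -1.41.

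The probesets of a gene mostly moved alike. Of the 19 probesets, 3 were called higher and 6 lower by limma over all 211507 probesets, where 8.29% and 6.98% of all probesets were. Both probesets of Lce1f rose, by 1.61 and 2.27 on the log2 scale, as did the only probeset of Lce1g. Both probesets of Lce1b fell, by 1.28 and 1.09. Of the 3 probesets of Lce1a2, 2 fell, by 1.33 and 0.76, and the other stood at -0.27 (adjusted p = 0.50). Lce1m likewise had 2 probesets that fell, by 1.68 and 1.35. The remaining one stood at -1.51 without passing (adjusted p = 0.089), since normal skins 1 to 3 measured 6.04 to 7.01 on it and normal skins 4 to 6 measured 8.28 to 8.96, against 5.19 to 6.91 in the tumours. The single probeset of Lce1c missed the threshold among probesets (adjusted p = 0.062). In Lce1d the 2 probesets stood at -0.22 and 0.22, so that the gene's difference of 0.00 is a median of opposite values. In Lce1e 1 of 2 probesets was dim, with values of 2.56 to 5.38, where the 25th percentile of the arrays was 4.88 to 4.95. The other stood at 0.46 (adjusted p = 0.15).

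**Figure D4:**
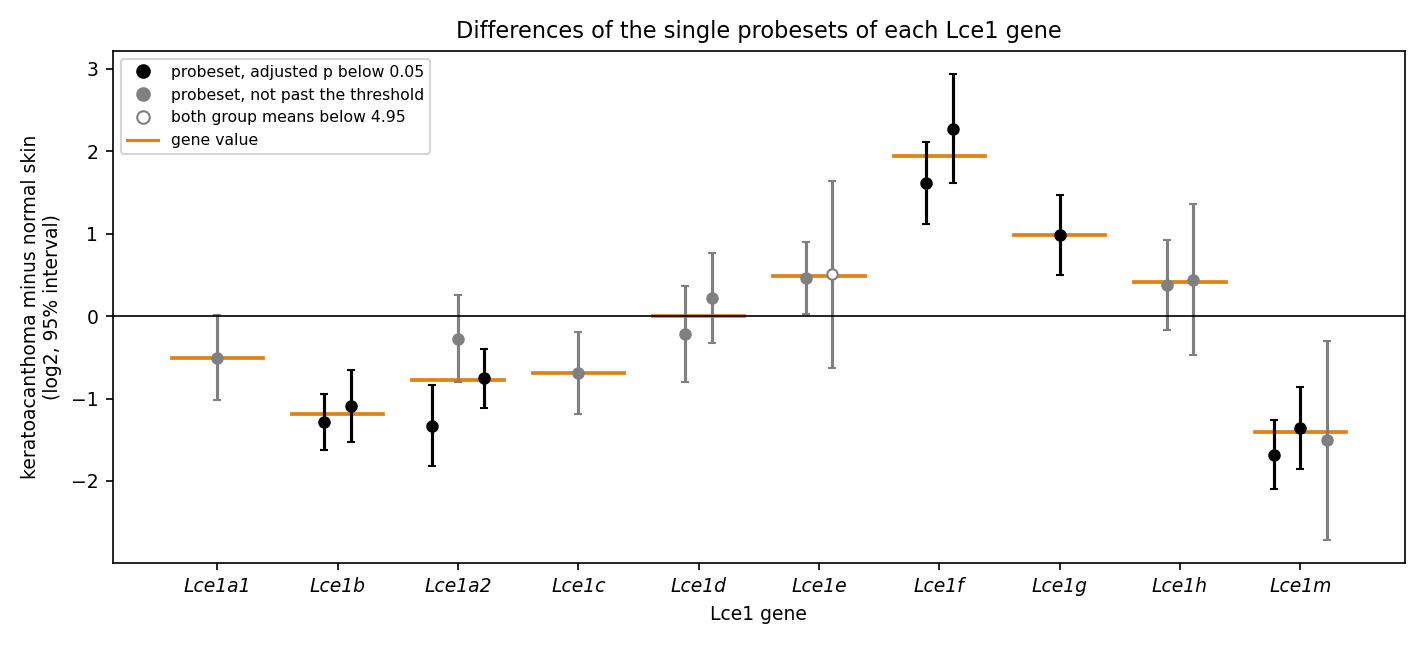
Log2 difference of keratoacanthoma minus normal skin, with its 95% interval, for each of the 19 probesets of the 10 Lce1 genes, grouped by gene; black points passed the threshold, the open point is dim in both groups and orange lines are the gene values. Both probesets of Lce1f and of Lce1b lie on 1 side of 0, whereas the pair of Lce1d lies at -0.22 and 0.22.

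All tumours were double transgenic, and only normal skins 1 and 2 shared that genotype. Against these 2 arrays, in a model of 4 groups with a common spread, Lce1f was higher by 2.01 (adjusted p = 0.0025) and Lce1g by 0.91 (adjusted p = 0.045), and Lce1b, Lce1m and Lce1a2 were lower by 1.17 (adjusted p = 0.0015), 0.98 (adjusted p = 0.010) and 0.94 (adjusted p = 0.0045). Thus 2 of 10 members were called higher and 3 lower, where 10.6% and 6.93% of all genes were. Lce1c was not among them, with a difference of -0.26 (95% interval -0.79 to 0.27, adjusted p = 0.48). With 2 reference arrays, several values hung on 1 of them. Lce1f kept its call but stood at 2.68 without normal skin 1 and at 1.35 without normal skin 2 (adjusted p = 0.00025 and 0.029). Without normal skin 2, Lce1g (0.80, adjusted p = 0.27), Lce1m (-0.81, adjusted p = 0.13) and Lce1a2 (-0.91, adjusted p = 0.051) lost their call, and without normal skin 1 Lce1g did (1.03, adjusted p = 0.076), where the lone remaining skin is assumed to vary like the other groups. Lce1g also missed the threshold without keratoacanthoma 1 (0.95, adjusted p = 0.059), 2 (0.81, 0.082) or 5 (0.78, 0.073), or without normal skin 5 or 6 (0.91 and an adjusted p of 0.062 in both).

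Normal skin with both transgenes was not told apart from normal skin with 1 of them in any member. Of 10 members, 0 passed the limma test in the same model (0.0147% of all genes did), and 2 had an unadjusted p below 0.05, as 10.2% of all genes had. These were Lce1m and Lce1c, both -0.64 in double against single transgenic skin (adjusted p = 0.39 and 0.45). Lce1m averaged 10.2 in the 2 double and 10.8 in the 4 single transgenic skins. The other differences lay between -0.24 and 0.45, and the lowest adjusted p of the 10 was 0.39.

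Markers of several other cell types differed between the groups. The counts stand beside 14.5% of all genes called higher and 10.8% called lower. Of 14 skeletal muscle genes, 14 were lower in the tumours (mean log2 level 5.73 to 7.39 in the tumours and 10.5 to 11.7 in normal skin), as were 7 of 8 fat cell genes (5.98 to 7.14 and 7.80 to 9.07), 4 of 7 fibroblast genes (7.39 to 8.60 and 8.92 to 9.75) and 4 of 7 sebaceous genes (6.11 to 7.20 and 7.26 to 7.74). Genes of endothelium (2 of 5 higher, 1 lower; mean level 6.38 to 6.97 in the tumours and 6.44 to 6.80 in normal skin) and of leukocytes (1 of 7 higher, 1 lower; 7.01 to 7.996 and 6.89 to 7.80) overlapped between the groups. How far the make-up of the tissue sets the level of the Lce1 genes cannot be told apart from tumour and normal skin here. Hair keratins were high in keratoacanthoma 4 (8.64) and in normal skins 1 and 3 (9.71 and 9.42), and ran from 5.90 to 6.29 elsewhere. Without these 3 arrays, a setting chosen after the data were seen, 2 members were again called higher and 4 lower, with Lce1f at 2.28, Lce1g at 1.25 and Lce1m at -1.64. The keratinocyte keratins went both ways, with 3 of 7 higher and 2 lower. Krt14 of the basal layer was higher by 1.19 and Krt1 of the layers above it by 0.97. Krt77 fell by 2.60, and Krt5 stood at 0.25 (adjusted p = 0.095) and Krt10 at -0.03 (adjusted p = 0.88).

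Setting the genes against keratins of the basal layer shifts every gene's difference down by the same amount, which makes rises smaller and falls larger. With the mean of Krt5 and Krt14 subtracted on each array, the median of all genes moved from -0.04 to -0.76. Lce1f was then still higher, by 1.23 (adjusted p = 8.6e-05), but Lce1g was not (0.27, adjusted p = 0.26). Lce1a1 (-1.22, adjusted p = 0.00026) and Lce1d (-0.72, adjusted p = 0.0088) joined the 4 members that were lower. These 6 of 10 stand beside 79.5% of all genes called lower on this scale (2.39% higher), and Lce1d was close to the shift of all genes. With Krt1 and Krt10 of the upper layers instead, also chosen after the data were seen, the median of all genes was -0.52. Lce1f (1.47) and Lce1g (0.51, adjusted p = 0.046) were higher on that scale, and Lce1a1 was among those lower (-0.98, adjusted p = 0.0016), where 4.57% of all genes were called higher and 64.6% lower.

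Other genes of the envelope also went both ways. Of 9 measured late cornified envelope genes outside the 10, 4 were higher and 1 lower, with a median of 0.41, where 14.5% of all genes were called higher and 10.8% lower. The 4 were Lce3b (5.05), Lce3a (4.16), Lce3f (3.80) and Lce3c, and the lower one was Lce1l. Of 34 other genes of the epidermal differentiation complex, 20 were higher and 4 lower, with a median of 1.52, beside a median of -0.04 over all genes. The largest rises were in the small proline-rich genes Sprr2f (5.07) and Sprr2g (4.59) and in repetin, Rptn (4.27), an S100 fused-type envelope protein. Filaggrin (Flg) and involucrin (Ivl) rose by 2.19 and 1.83. Filaggrin-2 (Flg2) and loricrin (Lor), a main protein of the envelope, fell by 2.16 and 0.77, and all 5 tumours were below all 6 skins for Lor (adjusted p = 0.0029).

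Lists of genes that build or control the envelope had smaller medians. Over all genes, 14.5% were called higher and 10.8% lower. Of 12 genes for its cross-linking and scaffold, 5 were higher and 0 lower, with a median of 0.20. They included the protease Casp14 (3.03), the transglutaminases Tgm3 (2.12) and Tgm1 (1.81), and cornifelin, Cnfn (1.91). Of 20 measured regulators of terminal differentiation, 9 were higher and 0 lower, with a median of 0.19. Examples were the epithelial transcription factor Ehf (2.10), the oxidative stress regulator Nfe2l2 (1.04) and Grhl3 (1.00), a Grainyhead-like factor of barrier formation. The 4 keratins of stressed epidermis were all higher, among them Krt6b (4.34), Krt16 (3.68) and Krt6a (3.01).

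Over the 11 arrays the members fell into sets whose levels ran together. Pearson's r of log2 levels was 0.90 between Lce1f and Lce1g, 0.89 between Lce1b and Lce1m, 0.88 between Lce1a2 and Lce1b and 0.85 between Lce1c and Lce1m. Among the members without a call, it was 0.82 between Lce1e and Lce1h and 0.77 between Lce1d and Lce1h. Lce1f ran against both Lce1b and Lce1m, with r = -0.86 for each. The arrays are of 2 groups, so that the values between called members in large part restate the difference between the groups. Lce1d, Lce1e and Lce1h had no call, and the values between them rest more on the spread within the groups. All are given as a description.

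The genes most like each member outside the 10 were found in the same way, 3 for each member. For Lce1f they were Ankrd22 (r = 0.99), Ttc37 (0.98) and the hypoxia-responsive factor Hif1a (0.98), and for Lce1g they were the cell surface antigen Psca (0.98), the small proline-rich gene Sprr2k (0.97) and the cholesterol hydroxylase Ch25h (0.97). Lce1m ran most closely with Skint9 (0.98), a gene of a family expressed in skin and thymus, utrophin, Utrn (0.97), and Rnf227 (0.97). Lce1b ran with the junction protein gene Cgnl1 (0.97), Yipf7 (0.97) and Tcap of the sarcomere (0.96), and Lce1a2 with Ccdc157, Rbfox1 and Dpf3 (each 0.94). For Lce1c they were Dtx3 (0.92), Bpifb4 (0.90) and the basement membrane collagen Col4a6 (0.90). The members without a call had Rgs8 (0.96, Lce1d), Nhlrc3 (0.93, Lce1h), Gm4988 (0.93, Lce1a1) and Sirpb1a (0.88, Lce1e) as the nearest gene. All these r values were picked as the highest among all genes outside the 10, so that the picking itself makes them high. They are a description over 11 arrays and were not tested.

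The sequences before the genes ranged from closely related to unlike. RefSeq promoter windows on GRCm38.p6, of 250 bases before the start of the gene, were found for 9 of the 10 members, all but Lce1f. The windows of Lce1b and Lce1m, which fell, of Lce1g, which rose, and of Lce1h, which lies next to Lce1g and was not called, are shown 5′ to 3′ because they hold the most alike pair and the window least like the others. Capitals mark the letters CACTGTCTCAC and TAAAAGG, which were found by comparing these windows.
Lce1b, chr3:92656927-92657176, minus strand: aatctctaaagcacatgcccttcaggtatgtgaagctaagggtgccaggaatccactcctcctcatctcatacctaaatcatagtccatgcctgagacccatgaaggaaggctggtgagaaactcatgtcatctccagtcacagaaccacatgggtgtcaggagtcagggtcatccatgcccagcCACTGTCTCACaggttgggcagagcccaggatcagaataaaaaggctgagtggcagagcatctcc
Lce1g, chr3:92752339-92752588, minus strand: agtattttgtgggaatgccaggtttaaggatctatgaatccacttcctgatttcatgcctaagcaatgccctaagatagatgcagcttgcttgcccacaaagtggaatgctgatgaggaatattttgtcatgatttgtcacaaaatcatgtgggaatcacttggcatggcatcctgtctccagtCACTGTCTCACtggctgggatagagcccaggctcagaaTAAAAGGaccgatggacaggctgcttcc
Lce1h, chr3:92765066-92765315, minus strand: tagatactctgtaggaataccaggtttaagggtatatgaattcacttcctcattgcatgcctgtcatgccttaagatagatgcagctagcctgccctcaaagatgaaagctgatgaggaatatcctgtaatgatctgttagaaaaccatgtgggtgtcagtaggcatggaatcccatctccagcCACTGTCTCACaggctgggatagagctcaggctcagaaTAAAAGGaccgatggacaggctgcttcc
Lce1m, chr3:93019062-93019311, minus strand: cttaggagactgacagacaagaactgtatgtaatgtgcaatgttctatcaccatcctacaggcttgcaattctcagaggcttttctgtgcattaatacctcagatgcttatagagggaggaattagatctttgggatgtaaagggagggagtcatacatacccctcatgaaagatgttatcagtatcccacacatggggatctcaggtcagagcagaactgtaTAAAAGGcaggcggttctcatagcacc

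Identity of the windows is given beside the change of the genes. Lce1g and Lce1h had the most alike windows, at 84.5% identity, and log2 differences of 0.98 and 0.41. Lce1b and Lce1g were 63.0% identical and moved in opposite directions, while Lce1m, which fell as Lce1b did, shared 47.7% to 50.4% with any of the other 8 windows. The other 28 pairs lay between 56.6% and 84.5%. No correlation of identity with change was computed, and these pairs are examples.

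The letters CACTGTCTCAC stood in 7 of 9 member windows, all but those of Lce1c and Lce1m, at 65 or 66 bases before the start, and in 0.0457% of 32851 RefSeq promoter windows of the same length, both strands searched. These letters were picked as a run held by at least 7 of the 9 windows, so that their count in members restates the choice. The 7 included Lce1b and Lce1a2, which fell, and Lce1g, which rose. Of the 15 windows that held them in all, 8 belonged to Lce1 genes. TAAAAGG stood in 8 of 9, all but Lce1b, at 27 or 28 bases before the start, and in 4.20% of all windows. It was picked likewise, as a run held by at least 8. TATAAA was in the windows of Lce1d and Lce1m, where it overlapped TAAAAGG, and in 12.4% of all. Of motifs bound by epidermal factors, TGANTCA for AP-1 (6.75% of all windows), AACCGGTT for Grainyhead-like factors (0.116%), GGGTGTGG for Klf4 (3.20%) and TTGCGCAA for C/EBP (0.164%) were in 0 of 9. TGACNNNGC for NRF2 was in that of Lce1d (10.2% of all windows).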

How the data were processed

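For 11 arrays, log2 values of 241576 probesets were deposited. Per the submitters' processing notes, the authors used RMA (background correction, quantile normalization and probe summary), Partek and build mm9; versions and settings were not given in the sources used here. The deposited normalization was kept. It can hide shifts common to all genes. Values ran from 0.994 to 15.2, array medians from 6.22 to 6.27, and the number of arrays limits the precision. Correlations over probesets were 0.943 to 0.960 between tumours, 0.890 to 0.950 between skins and 0.801 to 0.915 between groups. Probesets naming several genes (4475) or none (25004) were left out, as were 590 with values identical to another probeset of their gene. Of the symbols, 17621 were current, 2742 were updated through RefSeq and 53 kept.

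Differences were tested with limma 3.58.1 in R 4.3.3 (lmFit, eBayes) over all genes or probesets, tested on simulated data, with Benjamini-Hochberg adjusted p below 0.05. Exact permutation tests (462 arrangements) were two-sided. Intervals are at 95%. Python 3.11.15, pandas 2.3.3, numpy 2.4.6, scipy 1.17.1, matplotlib 3.10.9 and biopython 1.88 served for tables, figures and sequences. Promoter windows were aligned globally with match 2, mismatch -1, gap opening -4 and gap extension -0.5. The members and lists were chosen with earlier results of these data known. All members are described; of each list, the counts and up to 3 called genes per direction are named, and Flg, Ivl, Tgm1, Krt5 and Krt10 were named after their values were seen. The 3 genes with the highest Pearson r to each member were found over 11 arrays. Alternatives tried were the mean over probesets, leaving out dim probesets or dim genes (those under the 25th percentile), centring or quantile-normalizing the arrays, array weights, a trended and robust eBayes, a replicate block, either kind of normal skin alone, Krt5 and Krt14 as reference, and each array left out. Fits relative to Krt1 and Krt10 and without the 3 arrays high in hair keratins were added after seeing the data. No batch was given in the labels.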

Additional observations from a re-analysis of the deposited data

How the results depend on the processing

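Between keratoacanthoma and normal skin, Lce1f (1.23 to 2.28), Lce1b (-1.91 to -1.11), Lce1m (-2.12 to -0.98) and Lce1a2 (-1.49 to -0.69) kept direction and call in all 24 alternatives. Of the members called higher, 1 was left relative to Krt5 and Krt14, where 2.39% of all genes were higher. With double transgenic normal skin as the only reference 1 was also left, where 9.54% of all genes were higher. There Lce1g missed the threshold (0.91, adjusted p = 0.059), as did Lce1c (-0.26, adjusted p = 0.50). Against normal skin of the same genotype, 1 member was higher with array weights, 1 relative to Krt5 and Krt14 and 1 to Krt1 and Krt10. Of all genes, 4.63%, 1.57% and 2.98% were called higher in these fits. In each of the last 2, 5 members were lower, where 71.3% and 51.4% of all genes were called lower. Array weights ended the calls of Lce1g (0.93, adjusted p = 0.18) and Lce1m (-0.97, adjusted p = 0.056). Without 1 keratoacanthoma, 1 to 2 members were higher and 3 lower, where 8.18% to 9.94% and 4.83% to 6.41% of all genes were. Calls lost without 1 normal skin are given above.

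Members without a call changed sign in some fits. Lce1d became -0.013 after quantile normalization, -0.078 against single transgenic skin alone, -0.72 relative to Krt5 and Krt14 and -0.47 relative to Krt1 and Krt10, and ran from -0.17 to 0.13 with 1 array left out. Relative to Krt5 and Krt14, Lce1e became -0.23 and Lce1h -0.31, and Lce1h was -0.062 relative to Krt1 and Krt10. In the same-genotype comparison, the values relative to Krt5 and Krt14 and to Krt1 and Krt10 were -0.63 and -0.36 for Lce1d, -0.60 and -0.33 for Lce1e, and -0.41 and -0.14 for Lce1h. With 1 array left out, Lce1d ran from -0.013 to 0.29 and Lce1e from -0.55 to 0.92. The cause of these changes was not tested beyond the shift of all genes relative to the keratins.

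Whether the numbers in the titles pair tumours with skins is not in the labels. The correlation of same-numbered deviations was -0.18 to 0.10. It cannot decide the question, since differently numbered tumours and skins were not compared. With the replicate block, 2 members were higher and 3 lower, where 12.8% and 8.43% of all genes were. No tumour shares the number of normal skin 6, so that this array did not count towards the differences in the block fit. Lce1c missed the threshold there (-0.65, limma adjusted p = 0.11).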
